A study of Arabidopsis thaliana with 3 samples.

Results

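The ABC (ATP-binding cassette) transporter genes of Arabidopsis thaliana were described in a chromatin immunoprecipitation sequencing (ChIP-seq) map of HDA6, a histone deacetylase: it takes acetyl groups off histone tails, and plants use it to keep repeats and transgenes silent. Members were the nuclear protein-coding genes whose symbol is ABC, a subfamily letter and a number, which gave 124 of 27444 genes. The plants were Col-0 seedlings carrying HDA6 fused to green fluorescent protein (GFP) under the HDA6 promoter, grown in long days at 22°C and harvested at 14 days. There were 2 ChIP samples, made with an antibody against GFP, and 1 input sample, whose label also lists that antibody. All 3 carried the transgene, and no plants without it were among the samples analysed here. The labels list, for each library and the input too, DNA pooled from at least 5 immunoprecipitations.

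The authors deposited 1 list of HDA6-GFP regions and 1 list of input intervals, each giving positions on the TAIR10 build and no value per region. The ChIP list held 7477 nuclear regions with a median width of 337 bp, while the input list held 169984 on the nuclear chromosomes, at a median of 464 bp. Neither list tells the replicates apart, so no value below has a replicate error, no p-value was computed, and read depth is unknown. A gene was counted as having a region when a region overlapped its body or the 1 kb on either side by at least 1 bp. The gene table used gives no strand, so the ends of a gene are called lower and upper after their coordinates, and starts and ends of transcription are not told apart.

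ABC proteins bind and hydrolyse ATP and use the energy to move substrates across membranes. In plants the family is large, and its members carry hormones such as auxin and abscisic acid, lipids and other precursors of the cuticle and suberin, glutathione conjugates and metal chelates. Subfamilies A, B, C, D and G are built of membrane-spanning and nucleotide-binding domains, subfamilies E and F are soluble proteins linked to translation, and subfamily I gathers single subunits of complexes of a bacterial type, many of them in plastids and mitochondria.

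An HDA6-GFP region was found at 14 of the 124 ABC genes, or 11.3% (95% Wilson interval 6.85 to 18.1%), where 8.56% of all nuclear protein-coding genes had one. The interval covers counting error only, treats the genes as independent and includes the background share. Of the 14 genes, 3 lay on chromosome 2 at 3.0 to 3.6 Mb, where the reference holds an insertion of mitochondrial DNA. Outside that window 11 of 121 ABC genes had a region, or 9.09% (5.15 to 15.5%), against 8.20% of all protein-coding genes outside it. These 11 all lay in the chromosome arms, more than 3 Mb from a centromere midpoint, where the shares were 11 of 118 ABC genes (9.32%) and 7.04% of the protein-coding genes. Counting gene bodies alone, 9 of 118 arm ABC genes (7.63%) held a region beside 4.69% of arm protein-coding genes, and 12 of the 124 ABC genes (9.68%) beside 5.80% genome-wide. The Wilson interval of each ABC share over genes and flanks includes its background, and the share is not read as a result about the family. For the body alone the intervals were 4.06 to 13.9% in the arms and 5.62 to 16.2% in all, both of which also include the background.

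Among the 14 genes were ABCB12, ABCB18, ABCB22, ABCB23 and ABCB24 of subfamily B, ABCC2, ABCC4 and ABCC13 of subfamily C, ABCG6 and ABCG21 of subfamily G, and ABCI4, ABCI5 and ABCI7 of subfamily I. By subfamily, 6 of 27 ABCB genes had a region (22.2%, 95% Wilson interval 10.6 to 40.8%), 3 of 15 ABCC genes (20.0%, 7.05 to 45.2%), 2 of 42 ABCG genes (4.76%, 1.32 to 15.8%) and 3 of 18 ABCI genes (16.7%, 5.84 to 39.2%). Outside the insertion window the counts were 2 of 14 for ABCC and 1 of 16 for ABCI. The 12 ABCA, 2 ABCD, 3 ABCE and 5 ABCF genes had 0. A count of 0 among 12 ABCA genes allows a share of up to 25%, well above the background, so these zeros do not show a lower share. The ABCB interval lies above the 8.56% of all protein-coding genes, but it treats the genes as independent although ABCB23 and ABCB24 were counted from a single region. With only the regions wider than the median, the ABCB count was 1 of 27, beside 3.20% of all protein-coding genes. The intervals of the B and G subfamilies overlap, no difference between subfamilies was tested, and letters were compared after their counts were known.

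**Figure D1:**
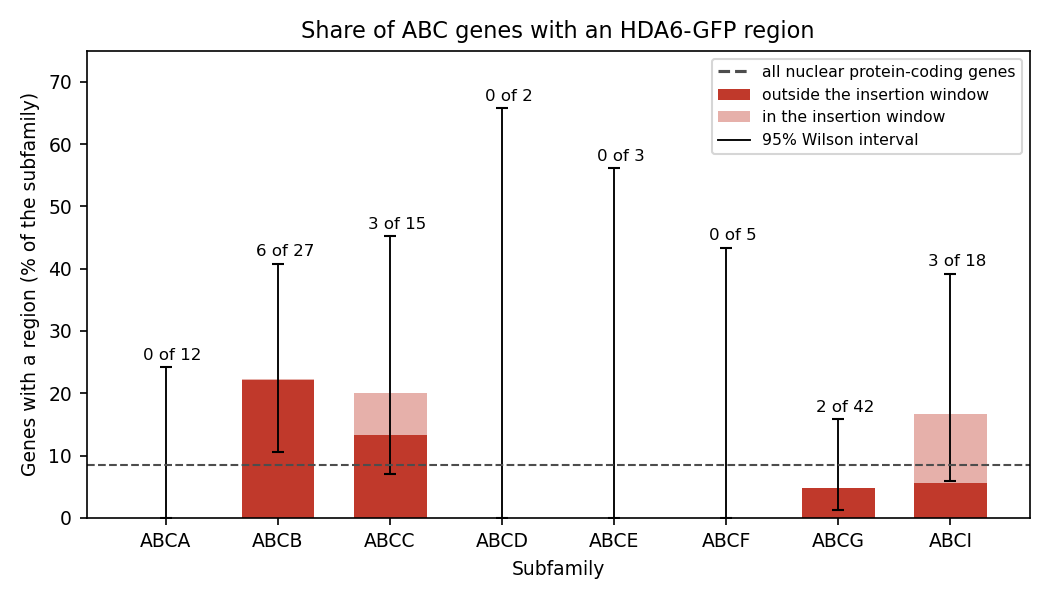
Share of genes in each ABC subfamily with an HDA6-GFP region in the body or within 1 kb (y axis, percent of the subfamily), with 95% Wilson intervals and the number of genes above each bar. The dashed line is the 8.56% of all nuclear protein-coding genes; the ABCB bar stands at 22.2% and the ABCG bar at 4.76%, and the pale parts of the ABCC and ABCI bars are genes in the mitochondrial DNA insertion window.

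Outside the insertion window, the regions at ABC genes were short and mostly inside the gene. The 14 genes held 14 distinct regions, because ABCB23 and ABCB24 shared 1, ABCI4 and ABCI5 shared 1, and ABCC2 and ABCG6 had 2 each. Outside the insertion window the 12 regions were 205 to 486 bp wide with a median of 277 bp. The 1343 regions at arm protein-coding genes had a median of 295 bp, with a 10th percentile of 230 bp and a 90th of 459 bp, so the ABC regions spanned about the same range. A region lay in the body at 12 of the 14 genes (85.7%), and at ABCB24 and ABCI7 only in the flank. The 12 include ABCI4 and ABCI5, whose shared region of 137370 bp covers the whole of both genes. Outside the insertion window a region lay in the body at 9 of the 11 genes with one, and the matching share of all protein-coding genes was not computed. Among all protein-coding genes with a region, those in the insertion window included, 67.8% had it in the body. ABC genes are longer than most, with a median of 4.61 kb against 2.08 kb outside the insertion window. The part of length in the share with a region in the body was not tested.

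**Figure D2:**
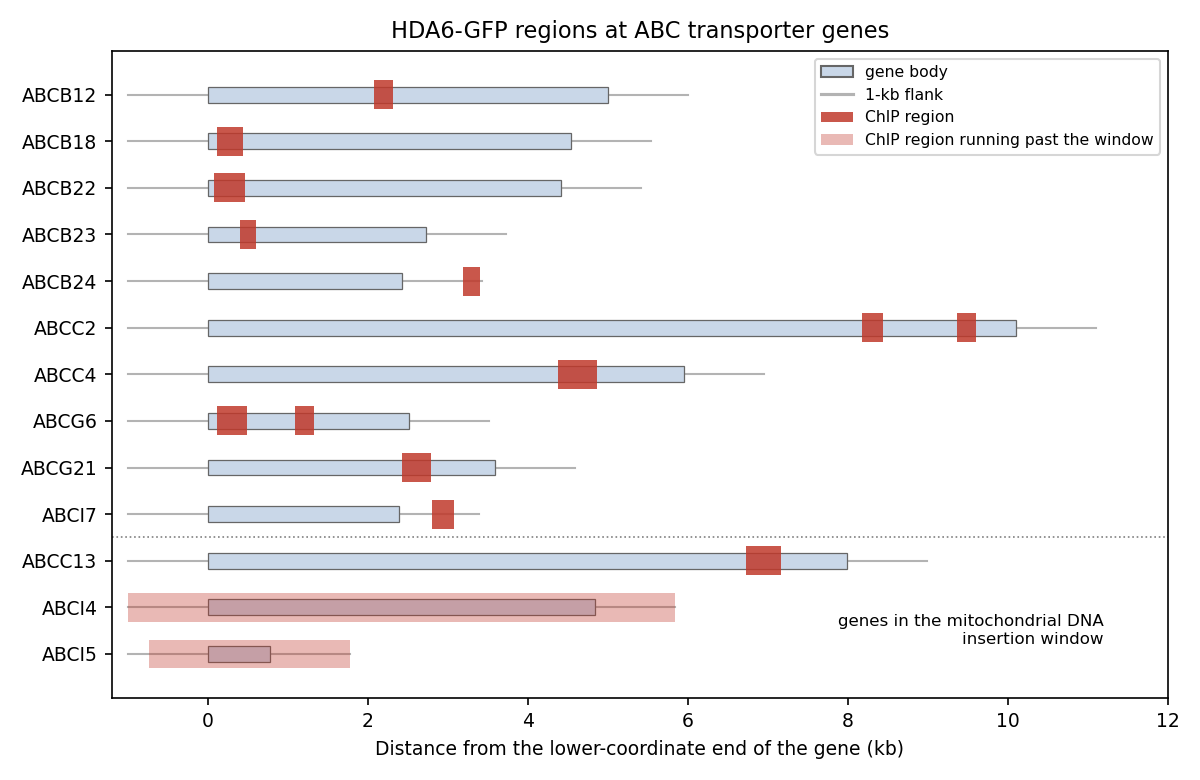
Position of the HDA6-GFP regions (red) at the ABC genes with one that are named in the text, which are not all of the 14. The x axis is distance in kb from the lower-coordinate end of the gene, blue bars are gene bodies and grey lines the 1-kb flanks. ABCB18, ABCB22 and ABCG6 have a region within 200 bp of the lower end, ABCC2 and ABCG6 have 2 regions, and at ABCI4 and ABCI5 (pale red) a single region of 137370 bp covers the whole body.

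Subfamily B holds the multidrug resistance or P-glycoprotein type transporters, among them the auxin carriers, together with shorter transporters of mitochondria and plastids. On chromosome 3, ABCB15, ABCB16, ABCB17, ABCB18 and ABCB22 follow each other with at most 2 other protein-coding genes between neighbours. In this run ABCB18 had a region of 329 bp (chromosome 3, 10629533 to 10629861) and ABCB22 one of 386 bp (chromosome 3, 10647199 to 10647584). Both lay just inside the lower end of the gene, 108 bp from it at ABCB18 and 76 bp at ABCB22. ABCB17 was 1332 bp from the ABCB18 region and so fell outside the 1-kb window, and the nearest region to ABCB16 was 13.2 kb away and to ABCB15 30.5 kb away.

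ABCB23 and ABCB24 lie side by side on chromosome 4 and encode the mitochondrial transporters ATM1 and ATM2. They shared a region of 205 bp (chromosome 4, 14138719 to 14138923), which lay inside ABCB23, 398 bp from its lower end, and 766 bp beyond the upper end of ABCB24. ABCB24 was thus counted only through its flank. ABCB25, or ATM3, the third member of this group, which exports a sulfur compound needed for iron-sulfur proteins of the cytosol, had no region within 25.1 kb. Of the 4 genes listed for mitochondria and peroxisomes, ABCB23 and ABCB24 were the 2 with a region, both counted from the same 205 bp. The share over all nuclear protein-coding genes was 8.56%, and a list of 4 with 1 shared region is not read against it.

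Of the ABCB11 and ABCB12 pair on chromosome 1, ABCB12 had a region of 237 bp (chromosome 1, 531757 to 531993) near the middle of its body, at 43.9% of its length from the lower end, and ABCB11 had none within 2.69 kb. In all, 5 of the 11 ABCB genes that neighbour another ABC gene had a region, and 1 of the other 16, beside 7.04% of all arm protein-coding genes. Neighbouring genes can share a region, as ABCB23 and ABCB24 did. This grouping was chosen after the values were seen and has no test. Over all subfamilies outside the insertion window, 5 of 42 ABC genes with such a neighbour (11.9%) and 6 of 79 without one (7.59%) had a region, on either side of the 8.20% of all protein-coding genes there. The longest run, 7 genes from ABCA2 to ABCA8 on chromosome 3, had 0, too few genes for a zero to show a share below the 7.04% of the arms.

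Of the 7 genes listed for auxin transport that are members by symbol, 0 had a region. Beside the 8.56% of all nuclear protein-coding genes, a zero among so few genes does not show a lower share. The nearest region was 62.8 kb from ABCB1 and 30.5 kb from ABCB19, the main auxin efflux transporters of this subfamily. It was nearer at ABCG37, a transporter of auxin precursors and of coumarins, at 4.94 kb, and at ABCB21, at 3.49 kb. For ABCB4, which carries auxin in roots, a region of 243 bp lay 1505 bp away, inside IAA20, a member of the Aux/IAA family of auxin response regulators.

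Subfamily C holds transporters of the multidrug resistance-associated type, several of which load glutathione conjugates into the vacuole. ABCC2, which with ABCC1 carries phytochelatins and conjugates into the vacuole, had 2 regions, of 273 bp (chromosome 2, 14610643 to 14610915) and 239 bp (chromosome 2, 14611837 to 14612075). They lay at 82.3 and 94.0% of its 10.1 kb from the lower end, and the second was also within 1 kb of AT2G34670. ABCC1, of similar length at 10.8 kb, had none within 8.57 kb. ABCC4 had the widest region outside the insertion window, 486 bp on chromosome 2 (19579043 to 19579528), at 77.6% of its length from the lower end. ABCC3, another vacuolar transporter, and ABCC5, which moves phytate into the vacuole, had none. Among the 4 genes listed for vacuolar transport, ABCC2 was the 1 with a region, beside 8.56% of all nuclear protein-coding genes, and 1 gene in so short a list says nothing about the group.

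Subfamily G, the largest, holds exporters of cuticle, suberin and pollen wall components and carriers of abscisic acid and cytokinin. ABCG6, which acts with ABCG2 and ABCG20 in forming suberin barriers, had 2 regions on chromosome 5. The first, of 369 bp (4370809 to 4371177), began 117 bp inside the lower end and lay within 1 kb of DCP2, a subunit of the mRNA decapping complex. The second, of 238 bp (4371782 to 4372019), lay near the middle of the gene. ABCG2 and ABCG20 had no region within 37.9 and 16.8 kb. ABCG21 had a region of 360 bp on chromosome 3 (9318499 to 9318858), at 72.6% of its length from the lower end. Of the 12 genes listed for cuticle, suberin and pollen wall, ABCG6 was the 1 with a region, a count near the background of 8.56%. The 5 genes listed for abscisic acid had 0, too few genes for a zero to show a share below that background. Their nearest region was 11.1 kb from ABCG22, 18.5 kb from ABCG30, 33.2 kb from the exporter ABCG25, 58.6 kb from the importer ABCG40 and 87.5 kb from ABCG31. ABCG14, which sends cytokinin from root to shoot, had none within 3.58 kb.

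Subfamily I had 1 gene with a region outside the insertion window. ABCI7, known as SUFD, is part of the plastid scaffold complex on which iron-sulfur clusters are built. Its region of 281 bp (chromosome 1, 11752599 to 11752879) lay 409 bp beyond the upper end and overlapped no annotated gene. ABCI8, or SUFB, of the same complex, had none within 13.9 kb and lies in a pericentromere, where 17.3% of protein-coding genes outside the insertion window had a region. Of the genes listed for plastid iron-sulfur assembly, 1 of 2 members thus had one, a list too short to read against the background. The 3 ABCI genes listed for lipid import at the plastid envelope and the 2 listed for aluminium tolerance had 0. The 8 ABCE and ABCF genes, which encode soluble proteins linked to ribosomes, also had 0, and none of these lists is long enough for a zero to show a share below the 8.56% of all nuclear protein-coding genes.

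The 3 ABC genes in the mitochondrial DNA insertion window were told apart because 95.5% of the 111 protein-coding genes there had a region. ABCI4 and ABCI5, nuclear copies of genes for the cytochrome c maturation transporter of mitochondria, lay in the widest nuclear region of the list, 137370 bp on chromosome 2 (3238952 to 3376321), which overlapped 95 annotated genes, 49 of them protein-coding. That region also held the widest nuclear input interval, of 125431 bp. ABCI1, the nuclear-encoded ATP-binding subunit of the same transporter, lies on chromosome 1 and had no region within 56.1 kb, so 2 of the 3 members listed for cytochrome c maturation had one, both in the insertion window. ABCC13 differed from the pair. Its region measured 436 bp (chromosome 2, 3521392 to 3521827), lay inside the gene 831 bp from the upper end, filled 5.46% of the gene, and was 145 kb from the end of the wide region with 21 other regions between them. How reads with several matches in the genome were treated is not given in the sources used here, and its part in these 3 counts was not tested.

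Beyond the 1-kb window, the ABC genes spread widely in their distance from a region. The 110 genes with none had the nearest region at 1.17 to 179 kb, with a median of 17.9 kb; 17 had one within 5 kb and 89 within 50 kb. The shares of all protein-coding genes within 5 or 50 kb were not computed, so these counts are not read against a background. In the arms the median was 19.9 kb for 107 ABC genes and 25.5 kb for 22540 protein-coding genes without a region. That difference was not tested, and neighbouring ABC genes can have the same nearest region. The farthest was ABCG27, at 179 kb, followed by ABCE3 at 156 kb.

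The window's edge separated genes at similar distances. Just inside it were ABCI7 at 409 bp and ABCB24 at 766 bp, and just outside were ABCC5 at 1171 bp, ABCB17 at 1332 bp, ABCB4 at 1505 bp, ABCI18 at 1519 bp, ABCI10 at 1713 bp and ABCC14 at 1882 bp. Each of these 6 outer regions overlapped another protein-coding gene. At ABCC5 it was SDD1, a protease that limits stomatal density, at ABCB17 it was ABCB18, at ABCB4 it was IAA20, and at ABCI10 it was MYB69, a MYB-type factor. At ABCI18 and ABCC14 it was AT1G03890 and AT3G62710.

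**Figure D3:**
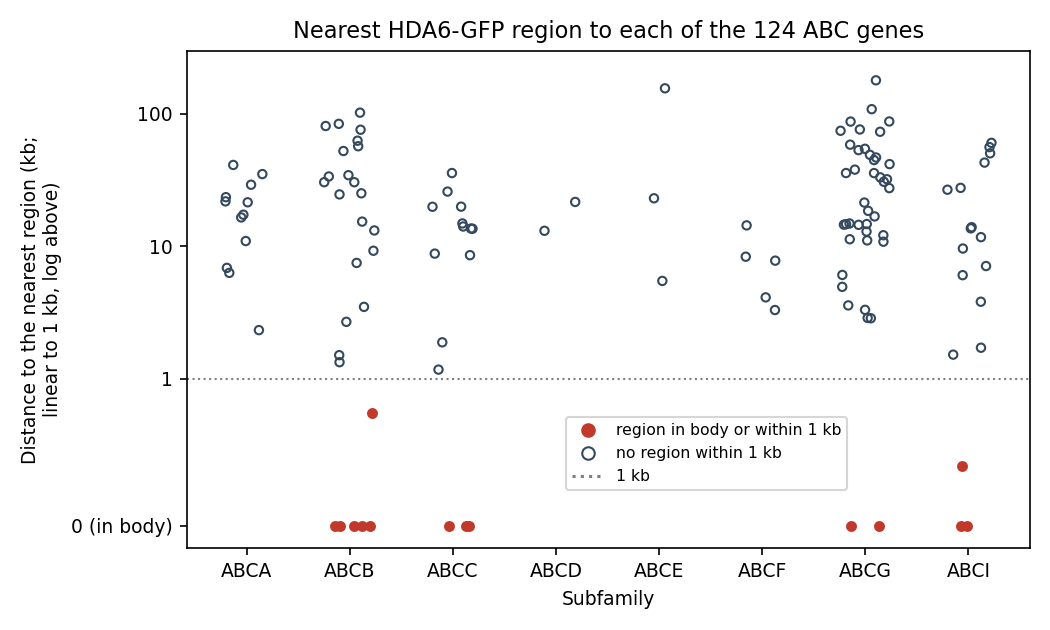
Distance in kb from each of the 124 ABC genes to the nearest HDA6-GFP region, by subfamily; the y axis is linear up to 1 kb and logarithmic above, 0 means a region in the body, and points are spread sideways for legibility. Filled points are the 14 genes with a region in the body or within 1 kb; the 110 open points reach from 1.17 kb (ABCC5) to 179 kb (ABCG27).

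By gene length, ABC genes lay above other genes in some classes and below them in others. Outside the insertion window, 3 of 46 ABC genes longer than 5 kb had a region (6.52%), against 11.3% of the 1634 protein-coding genes of that length. Between 2 and 3 kb the shares were 4 of 28 (14.3%) and 6.94%, and between 4 and 5 kb 3 of 29 (10.3%) and 8.17%. The 4 include ABCB23 and ABCB24, which share 1 region. In bodies alone, 2 of the 28 had a region, beside 4.42% of all protein-coding genes of that length. Counted per length in the arms, ABC gene bodies held 20.1 regions per Mb and all protein-coding gene bodies 21.3. Each ABC share rests on 4 genes or fewer, and none of these differences was tested.

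**Figure D4:**
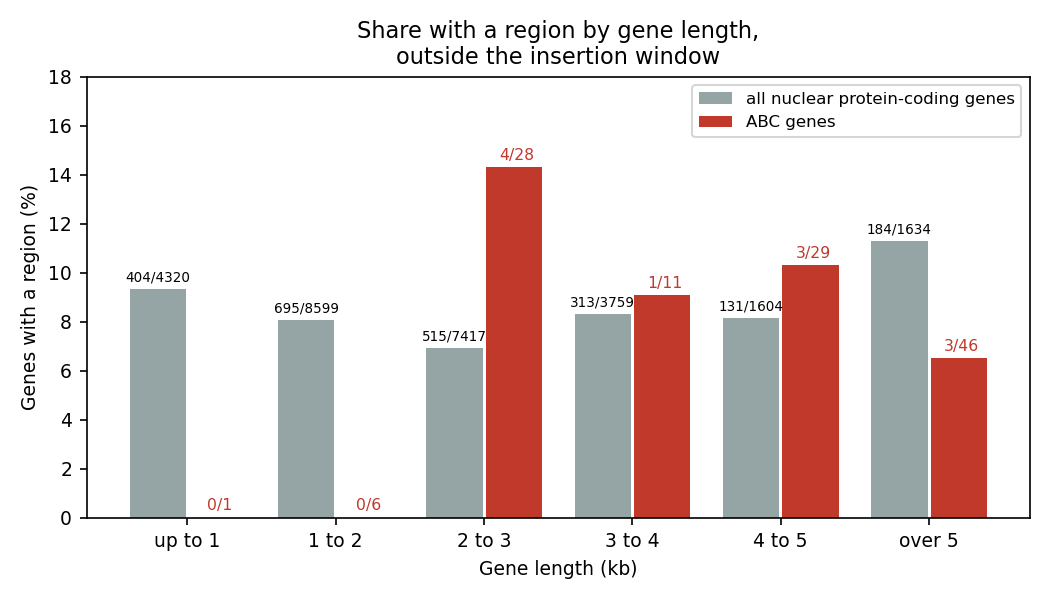
Percent of genes with an HDA6-GFP region in the body or within 1 kb by gene length in kb, for all nuclear protein-coding genes (grey) and ABC genes (red) outside the insertion window, with genes with a region over all genes above each bar. ABC genes lie above the others at 2 to 3 kb (14.3 against 6.94%) and below them over 5 kb (6.52 against 11.3%), each from 4 ABC genes with a region or fewer. At 2 to 3 kb these include ABCB23 and ABCB24, which share 1 region.

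Within gene bodies, 4 of the 11 regions inside arm ABC genes over 2 kb long (36.4%) lay within 200 bp of a gene end, among them those at ABCB18, ABCB22 and ABCG6. For all arm protein-coding genes over 2 kb, 84 of 680 regions (12.4%) did, with a median distance to the nearer end of 662 bp against 490 bp for the ABC genes. Only regions lying wholly inside a gene body entered these counts. That kept all 11 regions in arm ABC gene bodies, while at other genes any region crossing a gene end was left out. How many were left out was not counted, so the shares and medians may not be like for like. The limit of 200 bp was set after the positions were seen, and the difference was not tested.

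Input intervals covered 97.0 to 100% of the gene and its flanks at the 11 ABC genes with a region outside the insertion window, and 95.8 to 99.9% at the 110 genes without one. The widest input interval at a gene had a median of 2789 bp (936 to 4682 bp) with a region and 2198 bp (1032 to 6485 bp) without one, and the groups overlapped. The ABCB18 region lay in an input interval of 4682 bp, rank 268 of the 169984 nuclear intervals, whose 95th percentile was 2039 bp; it also reaches the window of ABCB17, which had no region. The ABCI7 region lay in one of 2880 bp, and at the other 10 regions outside the insertion window the widest input interval was 493 to 1985 bp. The part of input coverage in the ABCB18 and ABCI7 regions was not tested.

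**Figure D5:**
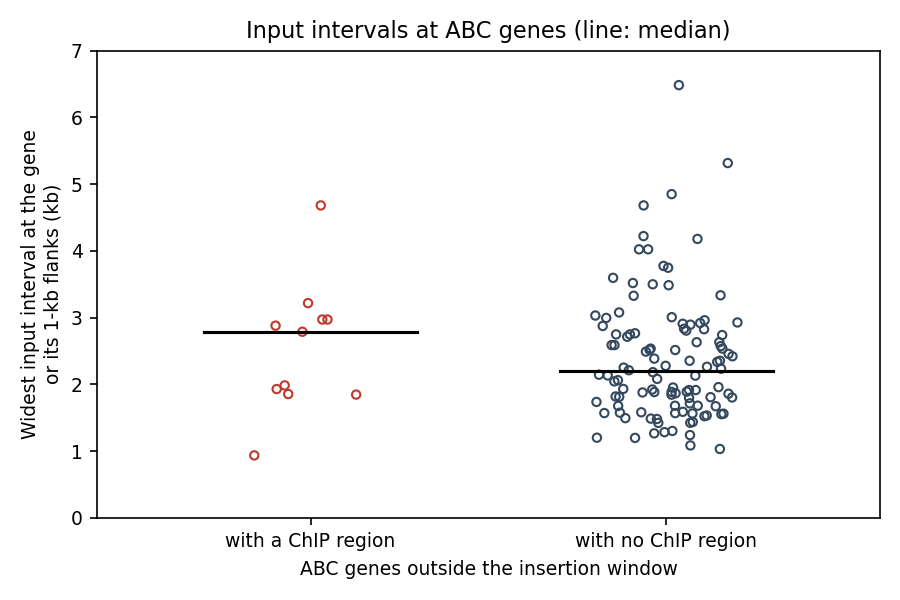
Width in kb of the widest input interval touching each ABC gene or its 1-kb flanks, outside the insertion window, for the 11 genes with an HDA6-GFP region and the 110 without one; each circle is a gene and lines are medians (2789 and 2198 bp). The groups overlap, and the highest circle among genes with a region is ABCB18 at 4682 bp.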

How the data were processed

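Per the labels, 2 ChIP samples and 1 input sample were sequenced. The submitters' processing notes name Bowtie, SICER and the TAIR10 build in no order. Versions, roles, settings and filters were not given in the sources used here, nor was replicate pooling. As deposited by the authors, the files hold positions in bp only with no count or score (starts are printed counted from 1). Both lists were taken as pooled over their group.

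Gene names, lengths and overlaps come from the RefSeq table of assembly TAIR10.1, treated on the nuclear chromosomes as the same sequence as TAIR10; no gene coordinates of it are printed, and it gives no strand. The 3 genes with an ABC name only among synonyms (PGP10, PEN3, NAP7) are no members. ABCI2, on one of the role lists, was not found in it by symbol among nuclear protein-coding genes. Genes with their middle up to 3 Mb from a centromere (15 Mb on chromosome 1, 3.6 on 2, 14 on 3, 4 on 4, 11.7 on 5) were called pericentromeric. Overlaps were computed with Python 3.11.15 and pandas 2.3.3, intervals with scipy 1.17.1, and the code was tested on simulated data. Named were every member with a region or in the insertion window, role-list members, members just outside 1 kb, tandem neighbours and genes sharing a region; some are not reported here by name. Members, lists and lengths compared were chosen with earlier results of these data known. No sequence table was used, so no sequence is shown.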

Additional observations from a re-analysis of the deposited data

How the results depend on the processing

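No paired analysis was possible because the lists pool the replicates and no result comes from a test; leaving out a replicate could not be run for the same reason. With the gene body alone, 12 ABC genes had a region (9.68%) against 5.80% of all protein-coding genes; with a 500-bp flank, 13 (10.5%) against 6.94%. With a 2-kb flank there were 20 (16.1%) against 11.5%, and 17 outside the insertion window, the 6 more being those just outside 1 kb. With the wider regions alone (those above the median width), 7 ABC genes had a region (5.65%) against 3.20%, 4 of them outside the insertion window. Of the 6 ABCB genes, ABCB22 was the 1 left with the wider regions. For the 17 and the 4 genes outside the insertion window, the share of all protein-coding genes there was not computed. These 2 counts are therefore not read against a background. With region midpoints the background was 7.79%, and without the 25 widest regions it was 8.29%. Midpoints, or leaving out the 25 widest regions, dropped ABCI4 and ABCI5 and no other ABC gene, which left 12 (9.68%). A minimum overlap of 100 bp left the same 14 genes (11.3%) against 8.26%. Adding the 3 synonym-only genes also left the same 14 (11.0%), against the unchanged 8.56%. Regions were found in the same number of subfamilies, 4, under each of these settings and in the arms alone. Allowing 0 or 5 genes between neighbouring ABC genes, an alternative added after seeing the data, gave 4 of 10 and 5 of 11 ABCB genes. The share of all arm protein-coding genes was 7.04%. Both counts include ABCB23 and ABCB24, which share 1 region, and neither was tested. With no value per region, the strength of a region cannot be weighed, and the few genes per subfamily limit every share.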

Other observations

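Other membrane transporter families, defined by symbol, gave counts of the same low order under the 1-kb rule, beside the 8.56% of all nuclear protein-coding genes. A region was found at 2 of 18 PHT phosphate transporter genes, PHT1;3 and PHT1;8, and at 2 of 12 ZIP metal transporter genes, ZIP9 and ZIP10. Of the PIP, TIP and NIP aquaporin genes, PIP2E and TIP5;1 had one (2 of 37). YSL6 had one among 17 OPT and YSL genes, PTR5 among 12 nitrate and peptide transporter genes of the NPF group, AAP2 among 8 amino acid permease genes and HA6 among 11 plasma membrane proton pump genes. SWEET sugar transporters (0 of 15), NHX exchangers (0 of 7), ALMT channels (0 of 4) and DTX carriers (0 of 2) had none. Each family is small, symbols in the gene table cover only part of some of them, and no family was tested against another.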
